A study of Mus musculus with 4 samples.

Results

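The chemokine ligand genes Cxcl3, Cxcl2, Cxcl10, Ccl20, Ccl5, Ccl4, Ccl3, Xcl1 and Ccl1 were followed in RNA-seq libraries of mouse T cells that had been driven towards the regulatory T cell (Treg) fate. These 9 genes are 9 of the 34745 genes in the deposited table, and they were picked by gene symbol. Because earlier values of this same comparison were in view when they were picked, the levels of these 9 genes are given as a description with no test. The study's title concerns the histone methyltransferase Setd2 in T cell-mediated autoimmunity and its target Lpcat4. Spleens of C57BL/6 mice gave the naive CD4+ T cells, which were kept under Treg polarizing conditions for 3 days before 4 libraries were sequenced. The 2 libraries labelled Setd2-CD4 cre carry the numbers 22 and 24, and the 2 libraries labelled wild type carry the numbers 13 and 15. The animals' age and sex are not among the labels used here.

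The genotype name gives Setd2 and a Cre recombinase under CD4 control, which as background is active in developing T cells from the CD4-expressing stage on and so also reaches CD8 T cells. The labels do not name the deleted exons. Nothing in the labels says that libraries of the same genotype came from separate animals, so the spread between libraries may be partly technical. The smallest p that an exact test of a single gene can give with 2 libraries against 2 is 0.333, so tests of genes outside the 9 rest on a spread estimated across all genes.

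Chemokines are small secreted proteins that bind G protein-coupled receptors on leukocytes and direct their migration. Cxcl1, Cxcl2, Cxcl3 and Cxcl5 act on Cxcr2, the main chemoattractant receptor of neutrophils, and in mice they lie in a single cluster on chromosome 5. Cxcl10, an interferon-inducible ligand, acts on Cxcr3 on effector T cells, and Ccl20 acts on Ccr6, which marks many T helper 17 cells and a part of Treg cells. Ccl3, Ccl4 and Ccl5 are inflammatory ligands that attract effector T cells and monocytes, Ccl1 is the ligand of Ccr8, and Xcl1 attracts dendritic cells that carry Xcr1. Many of these genes are switched on within hours of stimulation in T cells or myeloid cells, with NF-kB among the factors best known at their promoters.

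The sequences just upstream of Cxcl3, Cxcl2 and the third neutrophil ligand of the same cluster, Cxcl1, are shown because Cxcl3 and Cxcl2 are the members with the widest separation between the genotypes, while Cxcl1 stayed near the detection floor. They come from RefSeq, build GRCm38.p6, plus strand, and are printed 5′ to 3′ at chr5:90785981-90786100 for Cxcl3, chr5:90903751-90903870 for Cxcl2 and chr5:90891121-90891240 for Cxcl1. Capitals mark the letters GGGAATTTCC, a match to the NF-kB pattern GGGA-N-TT-N-CC, where N is any base, and the TATA-like ATAAAA.
Cxcl3: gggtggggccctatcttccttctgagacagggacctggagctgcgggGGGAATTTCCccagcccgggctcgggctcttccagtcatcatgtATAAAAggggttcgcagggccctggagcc
Cxcl2: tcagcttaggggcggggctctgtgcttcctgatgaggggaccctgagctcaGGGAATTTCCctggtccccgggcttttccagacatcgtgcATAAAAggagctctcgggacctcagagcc
Cxcl1: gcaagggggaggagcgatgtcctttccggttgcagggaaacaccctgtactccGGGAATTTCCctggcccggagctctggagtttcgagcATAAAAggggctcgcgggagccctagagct

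The RefSeq start of Cxcl2 lies 28 bases inside the gene as the table places it, and that of Cxcl1 4 bases inside, so the printed stretches end at the table's gene start. Counted from the RefSeq start, the shared GGGAATTTCC ran from 73 to 64 bases upstream in Cxcl3, from 97 to 88 in Cxcl2 and from 71 to 62 in Cxcl1. The same 10 letters stood on either strand in 28 of 32851 RefSeq windows of 250 upstream bases, or 0.0852%. The wider pattern GGGA-N-TT-N-CC was present in 0.980% of these windows, and in 3 of the 7 members whose promoter was in the table (Cxcl3, Cxcl2 and Cxcl10). The loose form GGGNNNNNCC, which contains every match of the narrower pattern, was present in 5 of the 7 members and in 45.8% of all windows. ATAAAA was found in 4 of the 7 members and in 17.0% of windows, and the overlapping TATAAA in 1 member, Cxcl3, and in 12.4% of windows. A match describes the letters of these windows and is not evidence that a factor binds there.

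The promoter of Cxcl10 is shown beside them as the interferon-inducible member of the same chromosome, where the genotypes overlapped. It is read on the minus strand at chr5:92348890-92349139, with capitals on an interferon response pattern (GAAANNGAAA), on matches to GGGNNNNNCC and on an AP-1 pattern (TGANTCA).
Cxcl10: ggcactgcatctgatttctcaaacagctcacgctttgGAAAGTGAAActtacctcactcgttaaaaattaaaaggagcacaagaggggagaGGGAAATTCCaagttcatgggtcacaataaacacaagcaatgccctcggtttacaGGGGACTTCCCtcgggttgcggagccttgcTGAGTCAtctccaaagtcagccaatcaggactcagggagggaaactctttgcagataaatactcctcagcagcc

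The interferon response pattern stood 213 to 204 bases upstream of Cxcl10 and in no other member with a promoter in the table, against 2.98% of all windows. The AP-1 pattern stood 74 to 68 bases upstream of Cxcl10 and likewise in 1 of the 7 members, against 6.75% of windows. The STAT pattern TTCNNNGAA was in 0 of the 7 members and in 7.02% of windows.

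The libraries were of similar depth, with 15594506 and 15653717 counts in the Setd2-CD4 cre-labelled libraries 22 and 24, and 16030869 and 14599957 in wild-type libraries 13 and 15. Levels are given as CPM, the usual depth-scaled read count, on the scaled library size, and 3 counts, taken as the floor of detection, equal 0.184 to 0.201 CPM. Setd2 itself was at 137 and 113 CPM in the Setd2-CD4 cre-labelled libraries and at 137 and 146 CPM in wild type (log2 fold change -0.17 ± 0.14 SE, edgeR adjusted p = 0.436). Counts over the whole Setd2 gene would show a deletion only if the missing exons carried many of its reads, so they did not settle the label. Foxp3, the lineage factor of Treg cells, was at 31.9 and 75.7 CPM in the Setd2-CD4 cre-labelled libraries and at 241 and 247 CPM in wild type (log2 fold change -2.18 ± 0.37 SE, edgeR adjusted p = 0.0233). Library 22 was thus farther from wild type than library 24 in Foxp3. Cd4 was at 1256 and 985 CPM in the Setd2-CD4 cre-labelled libraries against 1027 and 998 CPM in wild type (edgeR adjusted p = 0.504). Of 13279 genes that passed the filter on low counts, 734 were higher and 610 lower in the Setd2-CD4 cre-labelled libraries at an edgeR adjusted p below 0.05. That is 5.53% and 4.59% of the genes tested, and 10.1% in both directions together. For each call the spread between only 2 libraries a group matters: without wild-type library 13 the counts were 143 higher and 76 lower, and without wild-type library 15 they were 91 and 46. Without library 22 they were 982 and 840, and without library 24 they were 2126 and 1975.

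Cxcl3, a neutrophil attractant, was the most counted of the 9 ligands in the Setd2-CD4 cre-labelled libraries and was counted less often than Ccl5, Ccl20 and Cxcl10 in wild type. It was counted 797 and 325 times in libraries 22 and 24 labelled Setd2-CD4 cre, against 25 and 11 times in wild-type libraries 13 and 15. These counts equal 53.3 and 20.7 CPM in the Setd2-CD4 cre-labelled libraries, against 1.53 and 0.737 CPM in wild type. Both Setd2-CD4 cre-labelled libraries stood more than an order of magnitude above both wild-type libraries, and library 22 was the higher of the pair. Cxcl3 averaged 37.0 ± 23.0 CPM in the Setd2-CD4 cre-labelled libraries and 1.13 ± 0.561 CPM in wild type (SD, n = 2 each), a ratio of means of 32.6. The fitted log2 fold change was 5.0 ± 0.58 (SE). It lay between 4.18, without library 22, and 5.63, without wild-type library 13, when each library was left out in turn. The ratio of the summed counts, scaled for library size, was 31.8, with an interval of 22.8 to 45.6 at 95% confidence that covers counting error only.

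The gene (ENSMUSG00000029379) lies at chr5:90786103-90789600 on the plus strand. Its GENCODE annotation holds 1 coding transcript of 1016 bases and 1 transcript with a retained intron. Library 22 held 2.57 times as much Cxcl3 as library 24 (95% counting interval 2.26 to 2.93), so the replicates differed by more than counting error. In bulk RNA, more cells that make Cxcl3 and more Cxcl3 RNA per cell cannot be told apart, and this holds for every gene below.

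Cxcl2, the closest relative of Cxcl3 here and also a ligand of Cxcr2, showed the same order within the Setd2-CD4 cre-labelled pair at a lower level. It had 83 and 25 counts in the Setd2-CD4 cre-labelled libraries, against 0 and 1 in wild-type libraries 13 and 15, or 5.55 and 1.59 CPM against 0 and 0.0670 CPM. Wild type was under the floor of 3 counts in both libraries, and Cxcl2 passed the filter on low counts only through the Setd2-CD4 cre-labelled libraries. The summed counts were 108 in the Setd2-CD4 cre-labelled libraries and 1 in wild type, a scaled ratio of 110 with a wide 95% counting interval of 19.4 to 4391. Its fitted log2 fold change of 6.47 ± 1.12 (SE) depends on the count added to the wild-type zero, and without wild-type library 15, which leaves 0 counts in wild type, it was 8.81. Library 22 held 3.48 times as much Cxcl2 as library 24 (95% counting interval 2.20 to 5.68).

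Cxcl3 counts were 9.60 times those of Cxcl2 in library 22 (95% counting interval 7.65 to 12.2) and 13.0 times in library 24 (8.65 to 20.4), and these intervals overlap. In wild type Cxcl2 had too few counts for the proportion to be read. Cxcl3 and Cxcl2 transcripts share 80 stretches of 31 bases, 8.11% of those in Cxcl3 and 4.30% of those in Cxcl2, and no other pair of members shares any. Reads from these stretches could have been assigned to either gene. The shared part of Cxcl3 stands for 64.7 and 26.4 of its counts in libraries 22 and 24, if reads fall evenly along the transcript, beside 83 and 25 counts of Cxcl2 in the same libraries. In wild-type libraries 13 and 15 it stands for 2.03 and 0.892 counts, beside 0 and 1 counts of Cxcl2. The level of Cxcl2 is therefore uncertain, since the shared part of Cxcl3 comes to most or all of the Cxcl2 count.

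**Figure D1:**
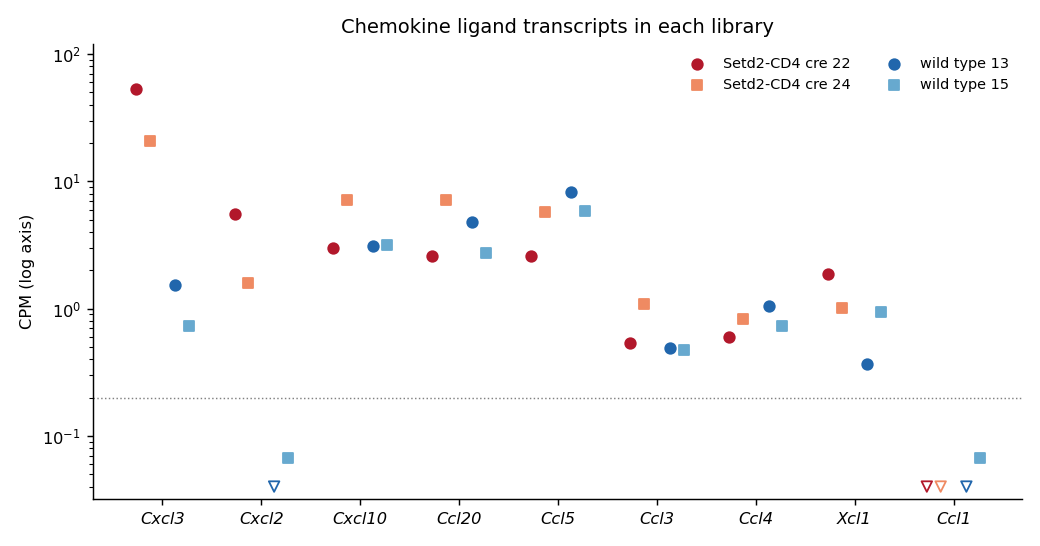
Level of the 9 chemokine ligand transcripts in each library in CPM, on a log axis, with Setd2-CD4 cre-labelled libraries 22 and 24 to the left of wild-type libraries 13 and 15. Open triangles at the bottom stand for 0 counts and the dotted line for about 3 counts; Cxcl3 is at 53.3 and 20.7 CPM in the Setd2-CD4 cre-labelled libraries and at 1.53 and 0.737 CPM in wild type.

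Along chromosome 5 the genes around Cxcl3 did not all follow it. Cxcl2 lies 114 kb beyond the end of Cxcl3 at chr5:90903871-90905938, and Cxcl5, another Cxcr2 ligand, ends 24.5 kb before Cxcl3 starts. Cxcl5 is not one of the 9 ligands and was singled out after its values were seen, since its mean was under 1 CPM. It had 24 and 13 counts in the Setd2-CD4 cre-labelled libraries and 2 in each wild-type library, or 1.60 and 0.829 CPM against 0.122 and 0.134 CPM. It passed the filter on low counts only through the Setd2-CD4 cre-labelled libraries, so its log2 fold change of 3.17 ± 0.70 (SE) is given as a description.

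The other cluster members were near or under the floor. Cxcl1, whose promoter carries the same GGGAATTTCC, had 2 and 5 counts in the Setd2-CD4 cre-labelled libraries and 0 and 2 counts in wild type and did not pass the filter. It lies between Cxcl3 and Cxcl2, 10.8 kb before Cxcl2. Ppbp and Pf4, the platelet chemokines, had at most 2 counts in any library, and Cxcl15 had none. Mthfd2l, a folate cycle enzyme that borders the cluster, was at 5.55 and 5.10 CPM in the Setd2-CD4 cre-labelled libraries and at 4.78 and 4.29 CPM in wild type (edgeR adjusted p = 0.553). Summed over Cxcl1, Cxcl2, Cxcl3, Cxcl5, Cxcl15 and Ppbp, the Cxcr2 ligands came to 60.6 and 23.5 CPM in the Setd2-CD4 cre-labelled libraries and to 1.78 and 1.07 CPM in wild type.

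**Figure D2:**
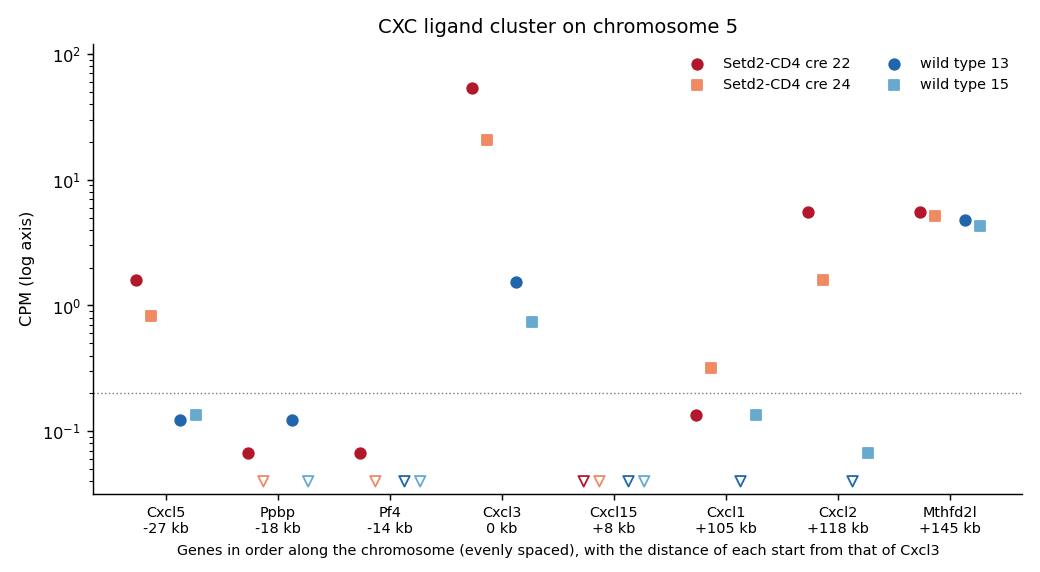
Level of the chromosome 5 chemokine cluster and its neighbour Mthfd2l in each library in CPM, on a log axis, with genes in chromosomal order and their distance from the start of Cxcl3 in kb. Open triangles stand for 0 counts and the dotted line for about 3 counts; Cxcl5, Cxcl3 and Cxcl2 lie higher in both Setd2-CD4 cre-labelled libraries than in both wild-type libraries, while Cxcl1 had at most 5 counts and Mthfd2l lies at 4.29 to 5.55 CPM in all 4.

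Cxcl10 (chr5:92346638-92348889, minus strand) did not separate the genotypes. It was at 3.01 and 7.08 CPM in the Setd2-CD4 cre-labelled libraries and at 3.12 and 3.15 CPM in wild type, so library 24 was high and library 22 was level with wild type. The means were 5.04 ± 2.88 CPM in the Setd2-CD4 cre-labelled libraries and 3.14 ± 0.0193 CPM in wild type (SD, n = 2 each), and the log2 fold change of 0.69 ± 0.43 (SE) came to -0.062 without library 24. Library 24 held 2.35 times as much Cxcl10 as library 22 (95% counting interval 1.65 to 3.41), the opposite order to Cxcl3. The other ligands of Cxcr3 were at the floor or absent: Cxcl9 had 0 counts in every library, which allows up to 3 counts in each, and Cxcl11 had at most 3. Art3 overlaps Cxcl10 on the other strand and had 3 and 0 counts in the Setd2-CD4 cre-labelled libraries and 0 in both wild-type libraries.

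Ccl20 (chr1:83116766-83119167, plus strand), the ligand of Ccr6, followed the same order of libraries within the Setd2-CD4 cre-labelled pair. It was at 2.61 and 7.08 CPM in the Setd2-CD4 cre-labelled libraries and at 4.78 and 2.75 CPM in wild type. The groups overlapped, with library 22 lowest and library 24 highest of the 4. The log2 fold change was 0.36 ± 0.51 (SE), and it was -0.54 without library 24.

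Among the member ligands on chromosome 11 (Ccl1, Ccl3, Ccl4 and Ccl5), Ccl5 had the highest level, per length as well. Ccl5 (chr11:83525778-83530518, minus strand) was at 2.61 and 5.74 CPM in the Setd2-CD4 cre-labelled libraries and at 8.27 and 5.83 CPM in wild type. The groups were separated only by the gap between 5.74 CPM in library 24 and 5.83 CPM in wild-type library 15, whose raw counts were 90 and 87. Ccl5 averaged 4.17 ± 2.21 CPM in the Setd2-CD4 cre-labelled libraries and 7.05 ± 1.72 CPM in wild type (SD, n = 2 each). The log2 fold change of -0.75 ± 0.40 (SE) was -1.44 without library 24 and -0.29 without library 22.

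Ccl4 (chr11:83662584-83664683, plus strand) and Ccl3 (chr11:83647844-83649355, minus strand) lie 13.2 kb apart and were both near 1 CPM or lower. Ccl4 was at 0.602 and 0.829 CPM in the Setd2-CD4 cre-labelled libraries and at 1.04 and 0.737 CPM in wild type, with overlapping groups and a log2 fold change of -0.31 ± 0.50 (SE). Ccl3 had 8 and 17 counts in the Setd2-CD4 cre-labelled libraries and 8 and 7 in wild type, and did not pass the filter on low counts. Ccl3, Ccl4 and Ccl5 together came to 3.74 and 7.65 CPM in the Setd2-CD4 cre-labelled libraries and to 9.80 and 7.04 CPM in wild type, which overlap.

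Xcl1 (chr1:164931644-164935527, minus strand), a ligand made by activated T cells and natural killer cells, had 28 and 16 counts in the Setd2-CD4 cre-labelled libraries and 6 and 14 in wild type. These were 1.87 and 1.02 CPM in the Setd2-CD4 cre-labelled libraries and 0.367 and 0.938 CPM in wild type, without overlap but with wild-type library 15 close to library 24. The log2 fold change was 1.15 ± 0.60 (SE), and it was 1.95 without wild-type library 15 and 0.62 without wild-type library 13. With 6 counts in wild-type library 13, Xcl1 would not have passed the filter on wild type alone, so these values are a description. Ccl1 (chr11:82176657-82305690, minus strand) had 0 counts in both Setd2-CD4 cre-labelled libraries and 0 and 1 in wild type, so no level could be read for it.

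Of the 9 ligands, 7 passed the filter on low counts, and Ccl3 and Ccl1 did not. Cxcl2 passed only through the Setd2-CD4 cre-labelled libraries, and Xcl1 would not have passed on wild type alone. The Setd2-CD4 cre-labelled libraries both lay above wild type for 3 of the 7 (Cxcl3, Cxcl2 and Xcl1) and both below for 1 (Ccl5), and the groups overlapped for 3. Among all genes tested, 31.1% lay above wild type and 32.7% below it without overlap. The median log2 fold change of the 7 was 0.69, against -0.00 for all genes tested. The choice of the 9 used this comparison, so nothing is read from these counts.

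The Setd2-CD4 cre-labelled libraries differed from each other by more than counting error in 5 of the 9 ligands (Cxcl3, Cxcl2, Cxcl10, Ccl20 and Ccl5), and not in 1 direction. The wild-type libraries also differed by more than counting error in Ccl5, at a ratio of 1.42 between libraries 13 and 15 (95% counting interval 1.07 to 1.88), and in Ccl20, at 1.74 (1.18 to 2.60). Against the wild-type mean, Cxcl3 was at a log2 value of 5.55 in library 22 and 4.19 in library 24, and Xcl1 at 1.52 in library 22 and 0.64 in library 24. Cxcl10 was at -0.06 in library 22 and 1.17 in library 24, Ccl20 at -0.53 in library 22 and 0.91 in library 24, and Ccl5 at -1.43 in library 22 and -0.30 in library 24. Library 22 was thus the higher for Cxcl3, Cxcl2 and Xcl1, and library 24 the higher for Cxcl10, Ccl20, Ccl5, Ccl3 and Ccl4. Foxp3 was at -2.94 in library 22 and -1.69 in library 24, so the library with less Foxp3 was the one with more Cxcl3. With 4 libraries no correlation between these genes was computed, and the part of Foxp3 or of the library in the ligand levels was not tested.

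**Figure D3:**
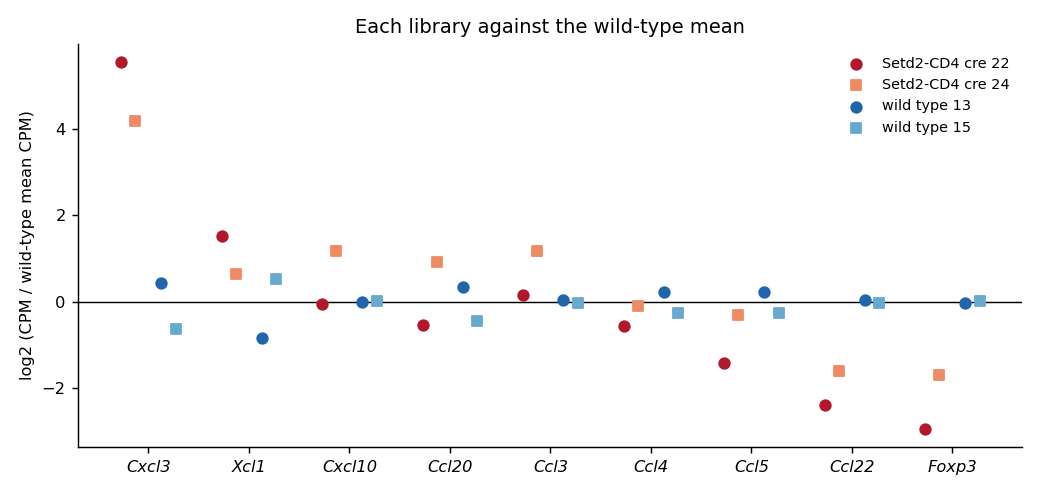
Level of each ligand, of Ccl22 and of Foxp3 in each library as the log2 ratio of its CPM to the mean CPM of the wild-type libraries; Cxcl2 and Ccl1 are left out because of their 0 counts. Cxcl3 lies at 5.55 and 4.19 in the Setd2-CD4 cre-labelled libraries 22 and 24, and Cxcl10, Ccl20 and Ccl5 are lower in library 22 than in library 24.

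Levels can be compared between genes only per length, and CPM per kilobase of the longest coding transcript was used for this. In the Setd2-CD4 cre-labelled libraries the order of mean levels was Cxcl3 (36.4 CPM per kb), Ccl5 (7.85), Cxcl10 (3.73), Ccl20 (3.42), Xcl1 (2.77), Cxcl2 (1.92), Ccl4 (1.08), Ccl3 (1.06) and Ccl1 (0). Cxcl3, at 52.5 and 20.4 CPM per kb, did not overlap Ccl5, at 4.90 and 10.8, while each of the neighbours from Ccl5 down to Ccl3 overlapped the next. In wild type the order of mean levels was Ccl5 (13.3 CPM per kb), Ccl20 (2.66), Cxcl10 (2.32), Ccl4 (1.35), Xcl1 (1.25), Cxcl3 (1.12) and Ccl3 (0.626), with Ccl1 and Cxcl2 under the floor and not ranked. Ccl5, at 15.5 and 11 CPM per kb, stood above Ccl20, at 3.37 and 1.94, and Ccl4, Xcl1 and Cxcl3 overlapped one another. Cxcl3 was thus first of the 9 in the Setd2-CD4 cre-labelled libraries. In wild type it was below Ccl5, Ccl20 and Cxcl10 and overlapped Ccl4 and Xcl1.

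The summed ligand counts of the cultures were similar in size and different in make-up. They are not scaled for transcript length, so the sums and shares describe counts and not amounts of message. Over the 9 ligands and 30 further chemokine ligand genes, 39 in all, the sum was 117 and 105 CPM in the Setd2-CD4 cre-labelled libraries and 112 and 105 CPM in wild type. Cxcl3 held 45.4% (Wilson 95% interval 43.0 to 47.7) and 19.8% (17.9 to 21.8) of these counts in libraries 22 and 24, against 1.37% (0.931 to 2.02) and 0.699% (0.391 to 1.25) in wild-type libraries 13 and 15. Ccl22, which attracts Ccr4-bearing Treg and T helper cells, held 5.92% and 11.5% in the Setd2-CD4 cre-labelled libraries and 33.7% in each wild-type library. Without Cxcl3 the sum was 64.2 and 84.1 CPM in the Setd2-CD4 cre-labelled libraries and 110 and 105 CPM in wild type. The 9 ligands without Cxcl3 and Cxcl2 came to 11.2 and 22.8 CPM in the Setd2-CD4 cre-labelled libraries and to 18.1 and 13.9 CPM in wild type, which overlap.

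**Figure D4:**
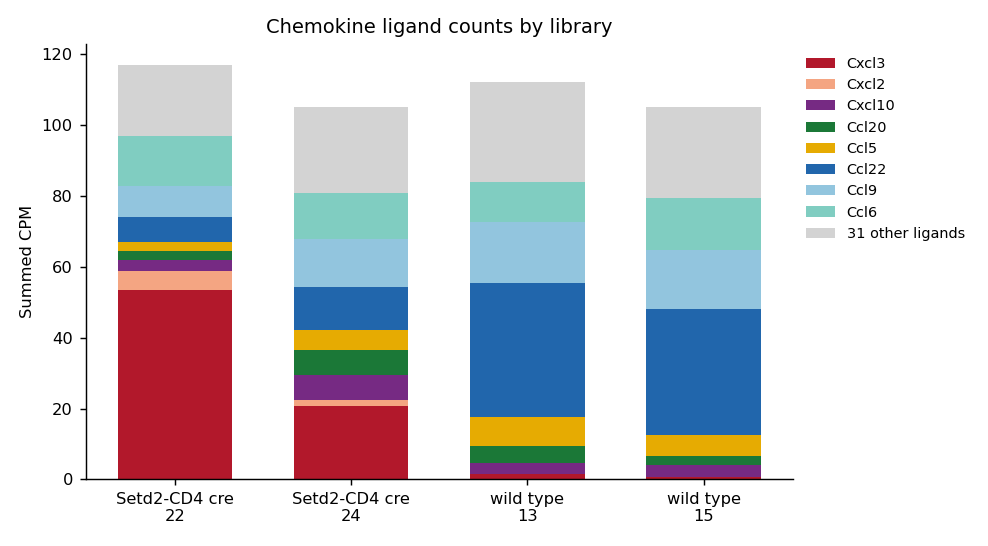
Summed CPM of 39 chemokine ligand genes in each library, stacked by gene, with the Setd2-CD4 cre-labelled libraries left of wild type. The bars reach 105 to 117 CPM in all 4 libraries, with 45.4% and 19.8% of the counts from Cxcl3 in libraries 22 and 24 and 33.7% from Ccl22 in each wild-type library.

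Of the 30 further ligands, 12 had 0 counts in every library and 9 passed the filter. Of these 9, 1, Cxcl5, which passed the filter only through the Setd2-CD4 cre-labelled libraries, was called higher and 1, Ccl22, lower in the Setd2-CD4 cre-labelled libraries (edgeR adjusted p below 0.05), beside 5.53% and 4.59% of all genes tested, and their median log2 fold change was -0.59. Ccl22 was at 6.95 and 12.1 CPM in the Setd2-CD4 cre-labelled libraries and at 37.7 and 35.5 CPM in wild type (log2 fold change -1.94 ± 0.26 SE, edgeR adjusted p = 0.0161). It kept its call in all 12 alternatives, with adjusted p from 3.48e-09 to 0.0326. The myeloid-associated ligands Ccl24, Ccl9 and Ccl6 and the membrane-anchored Cxcl16 did not pass. Ccl24 was at 2.14 and 4.78 CPM in the Setd2-CD4 cre-labelled libraries against 7.23 and 6.77 CPM in wild type (edgeR adjusted p = 0.128). Cxcl16 was at 2.94 and 5.10 CPM in the Setd2-CD4 cre-labelled libraries against 7.78 and 6.50 CPM in wild type (edgeR adjusted p = 0.134). Ccl9 was at 8.83 and 13.5 CPM in the Setd2-CD4 cre-labelled libraries against 17.1 and 16.6 CPM in wild type (edgeR adjusted p = 0.144). In these 3 genes, as in Ccl22, library 22 was the lowest of the 4. Without library 24 the log2 fold change was -1.71 for Ccl24, -1.28 for Cxcl16 and -0.94 for Ccl9. Without library 22 it was -0.53, -0.47 and -0.31 in the same order. Ccl6 at 13.9 and 12.9 CPM against 11.4 and 14.7 CPM, Ccl25 at 6.15 and 5.74 CPM against 4.29 and 3.95 CPM, and Ccl27a at 3.08 and 2.42 CPM against 5.33 and 3.82 CPM (Setd2-CD4 cre-labelled against wild type in each case) did not pass either, nor did Cx3cl1.

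The receptors of the 9 ligands give the other side of the pathway. Of 11 receptor genes, 5 passed the filter, 1 was higher and 0 were lower in the Setd2-CD4 cre-labelled libraries, beside 5.53% higher and 4.59% lower among all genes tested, with a median log2 fold change of 0.25. Ccr1, a receptor of Ccl3 and Ccl5, was at 8.63 and 11.4 CPM in the Setd2-CD4 cre-labelled libraries and at 3.8 and 2.95 CPM in wild type (log2 fold change 1.56 ± 0.27 SE, edgeR adjusted p = 0.0237). The edgeR adjusted p was 0.0707 without wild-type library 13 and 0.138 without wild-type library 15. Cxcr2, the receptor of Cxcl3 and Cxcl2, had 2 and 4 counts in the Setd2-CD4 cre-labelled libraries and 5 and 2 counts in wild type and did not pass the filter. Cxcr1 had 15 and 4 counts in the Setd2-CD4 cre-labelled libraries and 6 and 3 in wild type, also too few to pass. Xcr1, the receptor of Xcl1, and the atypical receptor Ackr1 had 0 counts in every library. The cultures thus held at most 5 counts of the Cxcr2 message in any library, at a depth of 14599957 to 16030869 counts.

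Ccr8, the receptor of Ccl1 and a marker of activated Treg cells, was at 61.6 and 46.0 CPM in the Setd2-CD4 cre-labelled libraries and at 84.2 and 78.0 CPM in wild type (log2 fold change -0.59 ± 0.17 SE, edgeR adjusted p = 0.0704). It passed the threshold without library 22 (edgeR adjusted p = 0.0216) and without library 24 (0.0435), with library totals in place of scaling (0.0468), with no filter (0.0330) and in DESeq2 (0.0345), over a range of 0.0216 to 0.322. Ccr6 at 16.6 and 23.0 CPM against 14.7 and 18.5 CPM, Cxcr3 at 9.43 and 12.0 CPM against 13.4 and 10.7 CPM, and the atypical receptor Ccrl2 at 3.41 and 3.64 CPM against 3.12 and 1.88 CPM (Setd2-CD4 cre-labelled against wild type) did not pass the threshold. The direction of Ccr6 and of Cxcr3 turned when a library was left out.

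**Figure D5:**
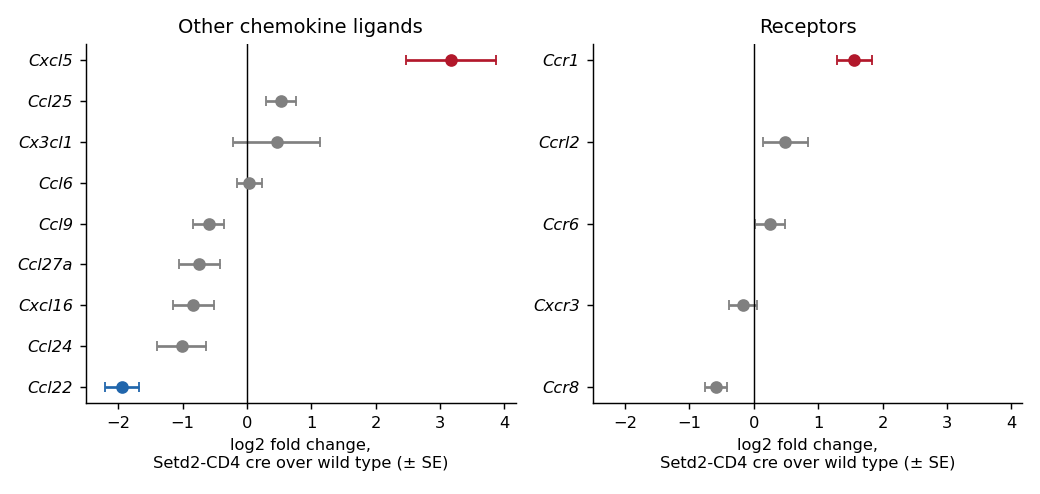
Log2 fold change (Setd2-CD4 cre over wild type) of the 9 further chemokine ligands and the 5 receptors that passed the filter on low counts, with bars for the standard error. Genes with an edgeR adjusted p below 0.05 are coloured: Cxcl5 at 3.17 and Ccr1 at 1.56 (red, higher) and Ccl22 at -1.94 (blue, lower). Cxcl5 passed the filter only through the Setd2-CD4 cre-labelled libraries, so its value is given as a description.

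Downstream of these receptors, 26 genes of G protein signalling and migration all passed the filter, and 2 were higher and 2 lower, beside 5.53% higher and 4.59% lower among all genes tested, with a median log2 fold change of 0.03. The higher ones were Rgs1 and Rgs2, which dampen G protein signals. Rgs1 was at 402 and 297 CPM in the Setd2-CD4 cre-labelled libraries and at 153 and 133 CPM in wild type (log2 fold change 1.29 ± 0.17 SE, edgeR adjusted p = 0.0158), and Rgs2 at 119 and 75.6 CPM against 32.3 and 25.8 CPM in wild type (1.74 ± 0.24, 0.0165). Without wild-type library 15 their edgeR adjusted p was 0.0829 and 0.0560. The lower ones were Dock2, which links chemokine receptors to Rac, and Pik3cg, the catalytic subunit of a G protein-coupled lipid kinase. Dock2 was at 361 and 350 CPM in the Setd2-CD4 cre-labelled libraries and at 506 and 547 CPM in wild type (-0.57 ± 0.11, edgeR adjusted p = 0.0307), and Pik3cg at 62.8 and 61.9 CPM against 92.6 and 102 CPM in wild type (-0.64 ± 0.13, 0.0334). Neither passed without wild-type library 13 (edgeR adjusted p = 0.166 and 0.163) or without wild-type library 15 (0.308 and 0.302). Plcb2 and Rgs16 did not pass (edgeR adjusted p = 0.0512 and 0.0602), but did in DESeq2 (adjusted p = 0.0235 and 0.0279). Both also passed with no filter (edgeR adjusted p = 0.0226 and 0.0272). Plcb2 passed as well with library totals (edgeR adjusted p = 0.0363), upper quartile scaling (0.0402) and a mean of 5 or more CPM (0.0473).

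Cytokine genes that T cells switch on with activation, often beside chemokines, did not move as 1 group. Of 22 such genes 20 passed the filter, 1 was higher and 2 were lower in the Setd2-CD4 cre-labelled libraries, beside 5.53% higher and 4.59% lower among all genes tested, with a median log2 fold change of 0.06. Tnfsf11, which encodes RANKL, was higher (64.6 and 62.1 CPM in the Setd2-CD4 cre-labelled libraries, 41.0 and 39.1 CPM in wild type, edgeR adjusted p = 0.0289). Lif was lower (94.3 and 91.4 CPM in the Setd2-CD4 cre-labelled libraries, 155 and 161 CPM in wild type, edgeR adjusted p = 0.0204), and so was Il21 (5.88 and 5.99 CPM against 11.8 and 10.4 CPM, 0.0417). None of the 3 passed without wild-type library 13 (edgeR adjusted p = 0.171, 0.133 and 0.265) or without wild-type library 15 (0.266, 0.183 and 0.202), and Il21 did not without library 22 (0.0584) or in either limma fit. Tnf was at 9.83 and 21.0 CPM in the Setd2-CD4 cre-labelled libraries and at 35.3 and 38.9 CPM in wild type (edgeR adjusted p = 0.0567), and Il24 at 24.4 and 11.4 CPM against 7.10 and 6.64 CPM in wild type (0.0583). Lta was at 72.8 and 123 CPM in the Setd2-CD4 cre-labelled libraries and at 176 and 188 CPM in wild type (edgeR adjusted p = 0.0609). As in Cxcl3, library 22 was farther from wild type than library 24 in Tnf, Il24 and Lta. Without library 24 their log2 fold changes were -1.92, 1.83 and -1.32. Without library 22 they were -0.81, 0.74 and -0.55. These 3 genes passed in DESeq2 (adjusted p = 0.00234 for Tnf, 0.00429 for Il24 and 0.00469 for Lta).

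Genes induced by interferon, the signal best known for Cxcl10, were read as a list because Cxcl10 itself overlapped. Of 22 genes 20 passed the filter, 3 were higher and 0 lower, beside 5.53% higher and 4.59% lower among all genes tested, with a median log2 fold change of 0.02. Usp18, which trims the ubiquitin-like modifier Isg15, was at 33.1 and 34.8 CPM in the Setd2-CD4 cre-labelled libraries and at 16.7 and 13.9 CPM in wild type (log2 fold change 1.15 ± 0.17 SE, edgeR adjusted p = 0.0176). Rsad2, the antiviral protein viperin, was at 4.48 and 7.14 CPM against 2.33 and 1.74 CPM in wild type, and Gbp4, a guanylate-binding protein, at 116 and 136 CPM against 44.0 and 76.3 CPM in wild type (edgeR adjusted p = 0.0460 and 0.0498). Usp18 did not pass without wild-type library 13 (edgeR adjusted p = 0.0589) or 15 (0.132). Rsad2 and Gbp4 each failed in 7 alternatives. Among these, the edgeR adjusted p of Rsad2 was 0.126 without wild-type library 13, 0.240 without wild-type library 15 and 0.0630 without library 24. That of Gbp4 was 0.190 without wild-type library 13, 0.0627 without library 22 and 0.0740 without library 24. Of the remaining genes, Socs1 was at 31.7 and 45.9 CPM against 66.4 and 56.6 CPM in wild type, and Ifit2 at 38.0 and 47.5 CPM against 55.1 and 64.0 CPM in wild type (edgeR adjusted p = 0.0786 and 0.101). In the other direction, Gbp2 was at 69.6 and 101 CPM in the Setd2-CD4 cre-labelled libraries against 57.9 and 57.6 CPM in wild type (edgeR adjusted p = 0.103).

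Cxcl3 and Cxcl2 are made in quantity by myeloid cells, so markers of other cell types are set beside them. Calls among these markers stand beside 5.53% higher and 4.59% lower among all genes tested. Of 8 neutrophil markers 2 passed the filter and none was called, and the sum of all 8 was 3.54 and 6.82 CPM in the Setd2-CD4 cre-labelled libraries and 2.14 and 0.737 CPM in wild type. S100a9, with the most counts of them, was at 1.94 and 4.08 CPM in the Setd2-CD4 cre-labelled libraries and at 1.04 and 0.268 CPM in wild type, with a log2 fold change of 2.17 ± 0.66 (SE). Ly6g had 11 and 17 counts in the Setd2-CD4 cre-labelled libraries and 4 and 0 in wild type, and Ngp had 3 and 6 counts in the Setd2-CD4 cre-labelled libraries and 0 in both wild-type libraries. Both tested markers, S100a9 and Ly6g, thus lay above wild type without overlap, beside 31.1% of all genes tested. Ly6g passed the filter only through the Setd2-CD4 cre-labelled libraries, and S100a9 would not have passed on wild type alone. Their place above wild type and their median log2 fold change of 2.47 are therefore given as a description. Elane and Retnlg had 0 counts throughout. The 10 macrophage and monocyte markers summed to 19.7 and 25.3 CPM in the Setd2-CD4 cre-labelled libraries and to 21.7 and 27.5 CPM in wild type, and of the 5 that passed the filter C1qb was called lower. C1qb passed it only through wild type, with 1 and 0 counts in the Setd2-CD4 cre-labelled libraries and 14 and 10 in wild type, and lost the call with any 1 library left out (edgeR adjusted p up to 0.169).

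Lymphoid markers of other lineages were also present. The calls below again stand beside 5.53% higher and 4.59% lower among all genes tested. The 9 natural killer markers summed to 162 and 201 CPM in the Setd2-CD4 cre-labelled libraries and to 67.5 and 62.0 CPM in wild type, with Gzma, Klri2 and Klre1 higher and Eomes lower among the 6 tested. The 6 gamma-delta T cell markers summed to 43.8 and 60.6 CPM in the Setd2-CD4 cre-labelled libraries and to 19.3 and 17.0 CPM in wild type, with Tcrg-C1, Tcrg-C2 and Cd163l1 higher among the 5 tested. Cd163l1 passed the filter only through the Setd2-CD4 cre-labelled libraries, so its call is given as a description. B cell markers summed to 290 and 339 CPM in the Setd2-CD4 cre-labelled libraries and to 225 and 227 CPM in wild type, with Igkc higher among the 7 tested, and most of the sum was Ighm. The 8 dendritic cell markers summed to 102 and 95.2 CPM in the Setd2-CD4 cre-labelled libraries and to 89.2 and 72.6 CPM in wild type, with Zbtb46 higher and Flt3 lower. Cd8a and Cd8b1 summed to 182 and 78.4 CPM in the Setd2-CD4 cre-labelled libraries and to 125 and 183 CPM in wild type. The 5 CD4 T cell markers summed to 3096 and 2741 CPM in the Setd2-CD4 cre-labelled libraries and to 2678 and 2573 CPM in wild type, with none called. Gzma and Klri2 kept their calls with any 1 library left out, and Flt3 kept its call in no omission. Zbtb46, Klre1, Eomes, Igkc, Tcrg-C1 and Tcrg-C2 lost theirs in at least 1 omission, wild-type library 15 among them for each (edgeR adjusted p without it 0.121, 0.115, 0.0904, 0.172, 0.132 and 0.170). The part of any of these cells in the levels of Cxcl3, Cxcl2 and Xcl1 was not tested.

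The genes whose profile over the 4 libraries was nearest to that of Cxcl3 were listed by the root mean square difference of centred log2(CPM + 0.1), among genes with a mean of 5 or more CPM. The nearest was Slc22a4, an organic cation transporter, at 13.2 and 7.08 CPM in the Setd2-CD4 cre-labelled libraries and 0.429 and 0.402 CPM in wild type, with a difference of 0.460. Next came Il23r, the specific subunit of the interleukin-23 receptor, at 14.2 and 5.80 CPM in the Setd2-CD4 cre-labelled libraries and 1.16 and 0.469 CPM in wild type, with a difference of 0.701. Both repeated the order of all 4 libraries seen in Cxcl3. In wild-type libraries 13 and 15 that order rests on 7 and 6 counts of Slc22a4 and on 19 and 7 of Il23r. The genes 5830411N06Rik, Gm16201 and 1700012B07Rik followed at differences of 0.753, 0.949 and 0.989. They were picked for this pattern, so it was not tested.

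The transcripts of several of the 9 ligands carry ATTTA, the core of the AU-rich elements known to speed the decay of chemokine and cytokine messages. In the 3′ UTR of the longest coding transcript in the GENCODE annotation, Cxcl2 had 11 copies in 1494 bases, Ccl20 9 in 1050, Cxcl3 5 in 645 and Ccl3 5 in 409. Cxcl10 had 3, Ccl4 2 and Xcl1 1, while Ccl5 and Ccl1 had 0. The median over 11858 tested genes with a 3′ UTR was 2 copies, or 1.28 per kb, against 7.75 per kb in Cxcl3 and 7.36 per kb in Cxcl2. A density as high as that of Cxcl3 was found in 1.82% of these genes, and as many copies in 22.0%. Ccl20, at 8.57 per kb, Ccl4, at 6.62, and Cxcl10, at 3.01, overlapped between the genotypes. Ccl3 had 12.2 per kb and Xcl1 7.09.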

How the data were processed

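Per the submitters' processing notes, the authors used Bowtie2 and RSEM with the mouse build GRCm38.p6 (mm10). No source used here gives tool versions, options, the annotation release or the use of strand, and overlapping genes on opposite strands cannot be told apart by their reads. Per the file headers, the deposited table gives a count and an FPKM value per gene and library. The counts are whole numbers and, since RSEM is named, may be estimated counts that the authors rounded. The authors' FPKM implied, for 5 of the 9 members, a gene length equal to the sum of all annotated transcript lengths (4514 bases for Cxcl3, whose coding transcript has 1016), so levels between genes were compared on CPM per kilobase of the longest coding transcript in GENCODE vM21.

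Counts were tested with edgeR 4.0.16 in R 4.3.3: filterByExpr (minimum count 10, minimum total 15), TMM scaling, glmQLFit and glmQLFTest, two-sided, with Benjamini-Hochberg adjustment over all 13279 genes tested and a threshold of 0.05. The common biological coefficient of variation was 0.157. Standard errors are approximate, the log2 fold change divided by the root of its F statistic. Alternatives were other scalings and filters, DESeq2 1.42.0, limma 3.58.1 on log2(FPKM + 1) and log2(FPKM + 0.1), and each library left out in turn. The edgeR step was tested on simulated data. Intervals are exact binomial for ratios of counts and Wilson for shares, at 95%. Tables and figures used Python 3.11.15, pandas 2.3.3, scipy 1.17.1 and matplotlib 3.10.9. Upstream sequences were matched by identifier in a RefSeq table of GRCm38.p6, which held 7 of the 9 members (Ccl4 and Ccl5 missing), and 7 patterns were searched on both strands.

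The members and all gene lists were chosen with earlier results of these data known. Named are the 9 members, every other chemokine ligand with a mean of 1 or more CPM, every tested receptor of the members except 1 that is not reported here, up to 6 genes by adjusted p of each of the lists for signalling, activation cytokines and interferon-induced genes, Setd2, Foxp3 and Cd4, the 5 genes nearest to Cxcl3, and markers beside a result. Exceptions, chosen after their values were seen, are Cxcl5, Cx3cl1, Cxcl1, Cxcl9, Cxcl11, Ppbp, Pf4, Cxcl15, Cxcr1, Cxcr2, Xcr1, Ackr1, Art3 and Mthfd2l.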

Additional observations from a re-analysis of the deposited data

How the results depend on the processing

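The 7 fitted members kept the direction of their log2 fold change in the alternatives that used all 4 libraries, except that Cxcl2, Cxcl10, Ccl4, Ccl20 and Xcl1 were not in the fit of genes with a mean of 5 or more CPM. Leaving out library 24 turned Cxcl10 to -0.062 and Ccl20 to -0.54. Cxcl3 came to 2.73 and Cxcl2 to 0.70 on log2(FPKM + 1), and Cxcl2 to 2.68 on log2(FPKM + 0.1), where the added constant is large beside the wild-type values. Ccl6 turned to -0.0190 with library totals and to -0.0083 and -0.0081 in the limma fits on FPKM + 1 and + 0.1, and ran from -0.13 to 0.23 with 1 library left out. Over the same omissions Cxcr3 ran from -0.36 to 0.0074, Ccr6 from -0.0019 to 0.48 and Cd4 from -0.026 to 0.31. The cause was not tested.

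Genes called higher and lower over the whole table were 1261 and 1088 with no filter, 445 and 446 with limma on FPKM + 1, and 457 and 434 on FPKM + 0.1. Leaving out 1 library gave 91 to 2126 higher and 46 to 1975 lower. Higher and lower calls over the same omissions ran from 0 to 1 and 1 to 4 for the other ligands, 0 to 1 and 0 to 1 for the receptors, 0 to 3 and 0 to 5 for signalling, 0 to 3 and 0 to 6 for cytokines, and 0 to 4 and 0 to 2 for interferon-induced genes. Other ligands had 0 higher with a mean of 5 or more CPM and with limma on FPKM + 1. Receptors had 1 lower with library totals, no filter and DESeq2. Cytokines had 4 higher and 4 lower with no filter, 3 and 4 in DESeq2, and 1 lower in each limma fit. Interferon-induced genes had 1 higher with library totals, upper quartile scaling and both limma fits, and 1 lower with no filter and DESeq2. The median log2 fold change of all genes lay between -0.0621 and 0.0331 in every alternative.

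No paired analysis was possible because the labels number the libraries 22, 24, 13 and 15, with no number shared between the genotypes. At this depth, members under 3 counts (Cxcl2 in wild type, Ccl1) have no readable level.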
